A study of Mus musculus with 24 samples.

Results

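Ighv11-2, Igkv14-126, Ighv12-3, Igkv4-91, Cd5, Bhlhe41, Zbtb32 and Plscr1 were followed across 12 RNA sequencing libraries of sorted mouse liver cells. They are 8 of the 45792 genes in the deposited values. The first 4 are immunoglobulin V segments known from antibodies that bind phosphatidylcholine, and the other 4 are genes known from B-1 cells. Ighv11-2 and Igkv14-126 were chosen by their measured values in these libraries, as they led the rises in dye-positive cells. Their difference between dye-positive and dye-negative cells is therefore given as a description with no test. All 8 genes had a mean log2 value of at least 4, the minimum for testing.

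The cells came from the liver of female C57BL/6 mice kept for 2 weeks on a diet lacking methionine and choline, which induces steatohepatitis, so that every group carries the diet and there is no group on a normal diet. The mice were injected intravenously with liposomes labelled with the membrane dye DiI, either empty or carrying curcumin, and cells with surface CD11c and MHC class II were sorted 24 hours later into DiI-positive (DiI+) and DiI-negative (DiI-) fractions. This gave 4 groups of 3 libraries: empty DiI+, curcumin DiI+, empty DiI- and curcumin DiI-. All mice had received liposomes, so the DiI- cells are unlabelled cells of treated mice and not cells of untreated mice. The sources used here give neither the age of the mice nor the dose, nor the lipids of the liposomes, nor whether replicate libraries were made from different mice. A p-value below therefore refers to variation among libraries, part of which may be technical.

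B-1 cells are innate-like B cells that are abundant in the body cavities and make natural antibodies without prior immunization. Some of those in mice recognize phosphatidylcholine, a main lipid of cell membranes, with a small set of recurrent receptors in which Ighv11-2 is joined to the light chain segment Igkv14-126, or Ighv12-3 to Igkv4-91. A V segment supplies most of the variable domain of an antibody chain, and its transcript level in a bulk library sums all B cells that rearranged it. In a bulk library, a change in the number of cells of a type and a change in the RNA of each cell cannot be told apart.

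The V exons of the 4 segments are shown because read counts of V segments depend on how well a segment can be told from its relatives. They were taken from the GENCODE M21 transcripts of GRCm38 and run 5′ to 3′ on the coding strand, with the first 300 bases shown of the 3 exons that are longer. Coordinates are those of the bases shown. Capitals mark the bases that differ from the most similar segment among the 112 heavy or 99 kappa chain segments compared. Ighv11-2 lies on the minus strand at chr12:114048248-114048547, and its most similar segment is Ighv11-1. Igkv14-126 lies on the plus strand at chr6:67896345-67896642, and its most similar segment is Igkv14-111. Ighv12-3 lies on the minus strand at chr12:114366531-114366830, and its most similar segment is Ighv3-1. Igkv4-91 lies on the minus strand at chr6:68768564-68768863, and its most similar segment is Igkv4-79.
Ighv11-2: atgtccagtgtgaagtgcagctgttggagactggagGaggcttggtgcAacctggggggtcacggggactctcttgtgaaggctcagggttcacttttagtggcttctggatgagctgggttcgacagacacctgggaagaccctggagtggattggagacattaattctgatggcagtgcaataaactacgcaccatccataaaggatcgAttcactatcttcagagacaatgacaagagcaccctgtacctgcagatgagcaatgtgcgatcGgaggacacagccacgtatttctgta
Igkv14-126: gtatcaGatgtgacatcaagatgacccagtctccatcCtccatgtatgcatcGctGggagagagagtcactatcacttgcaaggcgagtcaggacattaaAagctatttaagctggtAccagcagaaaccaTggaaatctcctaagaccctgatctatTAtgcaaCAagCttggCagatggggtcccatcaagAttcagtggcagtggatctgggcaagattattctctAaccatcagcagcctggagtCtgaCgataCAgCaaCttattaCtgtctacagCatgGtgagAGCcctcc
Ighv12-3: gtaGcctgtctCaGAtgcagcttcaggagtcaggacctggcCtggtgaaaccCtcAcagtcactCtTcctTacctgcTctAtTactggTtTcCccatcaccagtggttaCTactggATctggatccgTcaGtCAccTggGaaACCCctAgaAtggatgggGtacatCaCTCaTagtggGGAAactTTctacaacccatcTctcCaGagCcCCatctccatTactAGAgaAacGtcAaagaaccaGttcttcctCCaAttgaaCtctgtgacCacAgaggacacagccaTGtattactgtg
Igkv4-91: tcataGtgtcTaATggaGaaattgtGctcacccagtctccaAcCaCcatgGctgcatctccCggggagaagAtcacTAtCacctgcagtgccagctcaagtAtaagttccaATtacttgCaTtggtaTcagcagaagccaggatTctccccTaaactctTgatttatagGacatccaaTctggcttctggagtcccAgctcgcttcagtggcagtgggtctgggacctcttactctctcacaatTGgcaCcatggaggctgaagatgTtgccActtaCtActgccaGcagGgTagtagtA

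Ighv11-2 was 98.7% identical to Ighv11-1, with 4 differing bases and an identical run of up to 162 bases, so that reads could be split between them. Identity to the nearest segment was 90.9% for Igkv14-126, 77.4% for Ighv12-3 and 86.4% for Igkv4-91. The row of Ighv11-1 itself was low, with group means of 2.89, 2.74, 2.73 and 2.75 in empty DiI+, curcumin DiI+, empty DiI- and curcumin DiI- cells, and was not tested. The 4 other genes are protein-coding: Cd5 lies at chr19:10717116-10739002, Bhlhe41 at chr6:145858243-145865558, Zbtb32 at chr7:30589681-30598909 and Plscr1 at chr9:92249750-92272278.

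Markers of several cell types were read in the same libraries. The 12 B cell markers (Blnk, Ebf1, Fcrla, Bank1 and others) averaged 12.62 ± 0.15 in empty DiI+, 12.34 ± 0.58 in curcumin DiI+, 11.41 ± 0.1 in empty DiI- and 11.26 ± 0.3 in curcumin DiI- libraries (SD, n = 3), and none was at 0. The sort was described as one of dendritic cells, and the 10 dendritic cell markers averaged from 11.85 to 12.93 in the 4 groups. DiI+ curcumin replicate 3 had the lowest B cell marker mean of the DiI+ libraries, 11.67 against 12.49 to 12.79 in the other 5. In the difference of DiI+ and DiI- averaged over both liposomes, the Kupffer cell markers had a median of 2.95 and the NK cell markers of -1.54. The dendritic cell markers had a median of -0.99, beside 0.005 over all 14227 genes tested. Of the 10 dendritic cell markers 5 fell and 1 rose, beside 6.56% and 5.54% of all genes. Neither the make-up of the sort nor the part of these other cell types in the values below was tested.

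Ighv11-2, the heavy chain segment of the first pair, was high in all DiI+ libraries and low in all DiI- libraries. Its log2 values were 9.98, 8.93 and 9.75 in empty DiI+ and 8.63, 8.33 and 7.85 in curcumin DiI+ libraries. In empty DiI- libraries they were 5.59, 6.00 and 5.80, and in curcumin DiI- libraries 5.69, 5.62 and 5.65. No DiI+ library overlapped a DiI- library, and every empty DiI+ library was above every curcumin DiI+ library. The difference DiI+ minus DiI- was 3.76 ± 0.26 (SE) after empty and 2.62 ± 0.26 after curcumin liposomes. These log2 values have the form of a shrunken log, a scale that understates the change of low genes.

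Igkv14-126, its kappa light chain partner, was also high in all DiI+ and low in all DiI- libraries. Its log2 values were 8.70, 7.91 and 8.62 in empty DiI+, 7.96, 7.70 and 7.25 in curcumin DiI+, 5.89, 6.14 and 6.03 in empty DiI- and 5.88, 6.26 and 6.06 in curcumin DiI- libraries. The DiI+ libraries lay above all DiI- libraries, while the 2 DiI+ groups overlapped through empty replicate 2. The difference DiI+ minus DiI- was 2.39 ± 0.23 after empty and 1.56 ± 0.23 after curcumin liposomes (SE).

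**Figure D1:**
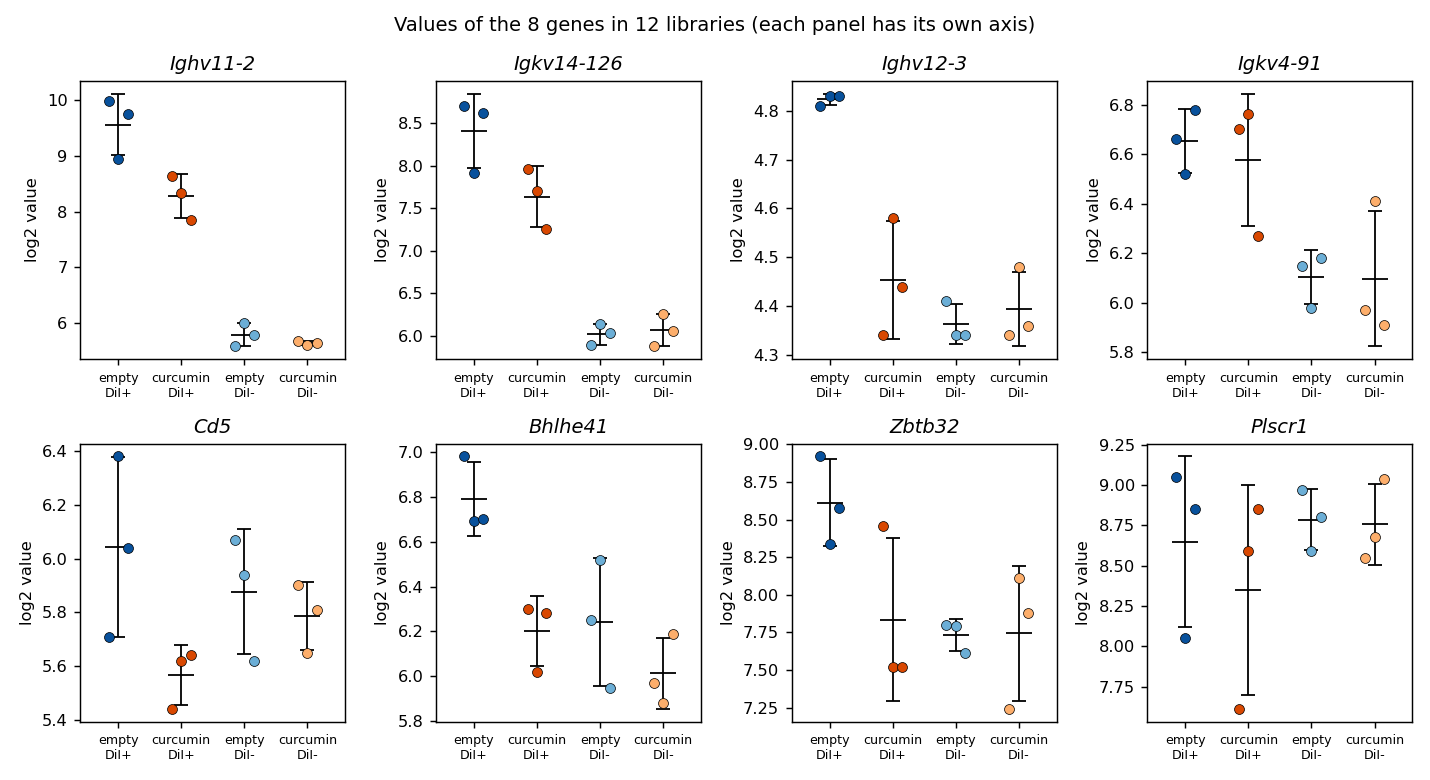
Log2 values of the 8 genes (vertical axis, a separate range for each panel) in the 12 libraries by group (horizontal axis); points are libraries, long bars are means and short bars SD (n = 3). Ighv11-2 lies between 7.85 and 9.98 in DiI+ libraries and between 5.59 and 6.00 in DiI- libraries, whereas Plscr1 overlaps in all 4 groups.

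Per kilobase of exon, the Ighv11-2 level in empty DiI+ cells was 10.67 (log2) and ranked 1 of the 57 Ighv segments tested, as it did in curcumin DiI+ cells at 9.39. In DiI- cells it ranked 21 after empty and 24 after curcumin liposomes. Igkv14-126 ranked 3 and 6 of 61 Igkv segments in empty and curcumin DiI+ cells and 27 and 26 in the DiI- groups. Averaged over both liposomes, the 2 segments differed between gates by 3.19 and 1.98, and the next of the 118 V segments, Igkv3-12, by 1.20. The other 55 Ighv segments tested had a median of 0.21 and the other 59 Igkv segments a median of 0.32. The smallest differences belonged to Ighv4-1 at 0.03, Igkv4-92 at 0.05 and Igkv5-45 at 0.07.

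**Figure D2:**
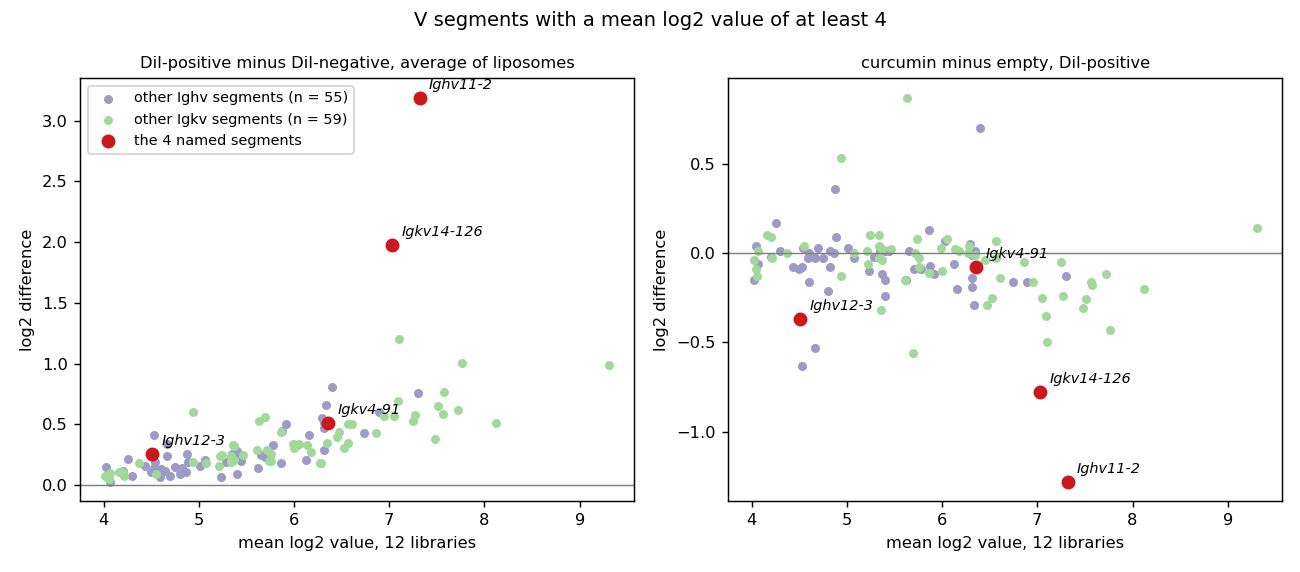
Difference of each tested V segment (vertical axis, log2) against its mean log2 value (horizontal axis) for DiI+ minus DiI- averaged over liposomes (left) and curcumin minus empty in DiI+ cells (right). Ighv11-2 at 3.19 and Igkv14-126 at 1.98 lie above the other segments on the left and are the 2 lowest on the right, at -1.28 and -0.78.

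The second pair had smaller differences. Ighv12-3, the heavy chain segment, lay at 4.81, 4.83 and 4.83 in empty DiI+, at 4.34, 4.58 and 4.44 in curcumin DiI+, at 4.41, 4.34 and 4.34 in empty DiI- and at 4.34, 4.48 and 4.36 in curcumin DiI- libraries. The 3 empty DiI+ libraries stood above all others, and 4 libraries were within 0.01 of the lowest value. After empty liposomes Ighv12-3 rose by 0.46 ± 0.07 (SE, limma adjusted p = 0.0081), and after curcumin liposomes the difference was 0.06 (limma adjusted p = 0.683). Of the 6 members whose uptake difference was not used to choose them, it was the 1 that passed after empty liposomes, where 1.32% of all genes tested passed as higher. Of these 6, 4 did not overlap between empty DiI+ and DiI- libraries and were higher in DiI+ (Ighv12-3, Igkv4-91, Bhlhe41 and Zbtb32), beside 12.3% of all genes, and 4 had an unadjusted p under 0.05, beside 17.9%. None of the 6 passed after curcumin liposomes, where 1.41% of genes passed as higher; 1 of the 6 had an unadjusted p under 0.05 there, beside 18.2% of all genes. After curcumin liposomes 0 of the 6 were higher in DiI+ without overlap, beside 9.88% of all genes, and 1 was lower, Cd5, beside 10.7%.

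Igkv4-91, the light chain segment of this pair, had log2 values of 6.66, 6.52 and 6.78 in empty DiI+, 6.70, 6.76 and 6.27 in curcumin DiI+, 6.15, 5.98 and 6.18 in empty DiI- and 5.97, 6.41 and 5.91 in curcumin DiI- libraries. The empty groups did not overlap, and the curcumin groups overlapped through DiI+ replicate 3 and DiI- replicate 2. The differences were 0.55 ± 0.17 after empty (limma adjusted p = 0.11) and 0.48 ± 0.17 after curcumin liposomes (limma adjusted p = 0.148). Without curcumin DiI+ replicate 3, the latter was 0.63 and passed (limma adjusted p = 0.0407). Over all genes, 1088 passed in that fit in place of 437. Averaged over both liposomes, Ighv12-3 rose by 0.26 ± 0.05 (limma adjusted p = 0.0062) and Igkv4-91 by 0.51 ± 0.12 (limma adjusted p = 0.0165), so that 2 of the 6 passed, beside 5.54% of all genes as higher.

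Segments of the same families gave the scale of these values. Igkv14-111 differed by 0.50 ± 0.17 on average and Igkv14-100 by 0.29 ± 0.09, and neither passed (limma adjusted p = 0.0818 and 0.0651). The other 13 Igkv4 segments tested differed by 0.05 to 0.60 with a median of 0.18. Igkv4-63 at 0.60 and Igkv4-57 at 0.31 were the highest of them, and Igkv4-92 at 0.05 and Igkv4-70 at 0.07 the lowest. Igkv4-57 and Igkv4-57-1, the latter at 0.25 and named after its value was seen, passed as Igkv4-91 did (limma adjusted p = 0.0429 and 0.0415), and Igkv4-63 did not (limma adjusted p = 0.32).

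The 4 genes known from B-1 cells did not pass in any uptake comparison. Bhlhe41, a transcriptional repressor needed for B-1a cells, was at 6.98, 6.69 and 6.70 in empty DiI+, 6.30, 6.02 and 6.28 in curcumin DiI+, 6.25, 6.52 and 5.95 in empty DiI- and 5.97, 5.88 and 6.19 in curcumin DiI- libraries. The empty DiI+ libraries were above all others, with a difference from empty DiI- of 0.55 ± 0.16 (limma adjusted p = 0.0967), against 0.185 after curcumin liposomes (limma adjusted p = 0.593). The average was 0.37 (limma adjusted p = 0.0579), and it passed without empty DiI- replicate 2 at 0.44 (limma adjusted p = 0.0363). Over all genes, 1153 passed in that fit in place of 1722.

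Zbtb32, a zinc finger repressor of lymphocytes, was at 8.92, 8.34 and 8.58 in empty DiI+, 8.46, 7.52 and 7.52 in curcumin DiI+, 7.80, 7.79 and 7.61 in empty DiI- and 7.24, 8.11 and 7.88 in curcumin DiI- libraries. The empty DiI+ libraries lay above the empty DiI- libraries by 0.88 ± 0.28 (limma adjusted p = 0.122), and the curcumin groups overlapped, with a difference of 0.09 (limma adjusted p = 0.901). In a fit of only the 6 empty liposome libraries, the former passed (limma adjusted p = 0.0397). There 617 of all genes passed, in place of 419.

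Cd5, a surface receptor that dampens antigen receptor signalling and is also carried by T cells, was at 5.71, 6.38 and 6.04 in empty DiI+, 5.44, 5.62 and 5.64 in curcumin DiI+, 6.07, 5.94 and 5.62 in empty DiI- and 5.90, 5.65 and 5.81 in curcumin DiI- libraries. The difference was 0.17 (limma adjusted p = 0.671) after empty and -0.22 (limma adjusted p = 0.531) after curcumin liposomes, where every DiI+ library was below every DiI- library. Of the 12 T cell markers, 1 rose and 3 fell in the averaged difference, beside 5.54% and 6.56% of all genes. Their median was -0.20, beside 0.005 over all genes. The part of T cells in the Cd5 value was not tested.

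Plscr1, a phospholipid scramblase that interferon induces, was in DiI- cells at 8.97, 8.59 and 8.80 after empty and 8.55, 8.68 and 9.04 after curcumin liposomes. In DiI+ libraries it was at 9.05, 8.05 and 8.85 after empty and at 7.61, 8.59 and 8.85 after curcumin liposomes, with overlap in both comparisons. The differences were -0.14 ± 0.32 (limma adjusted p = 0.884) and -0.40 ± 0.32 (limma adjusted p = 0.558). Of the 10 interferon-stimulated genes 3 fell and none rose in the averaged difference, beside 6.56% and 5.54% of all genes. Their median was -0.21, beside 0.005 over all genes. The part of interferon in the Plscr1 value was not tested.

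**Figure D3:**
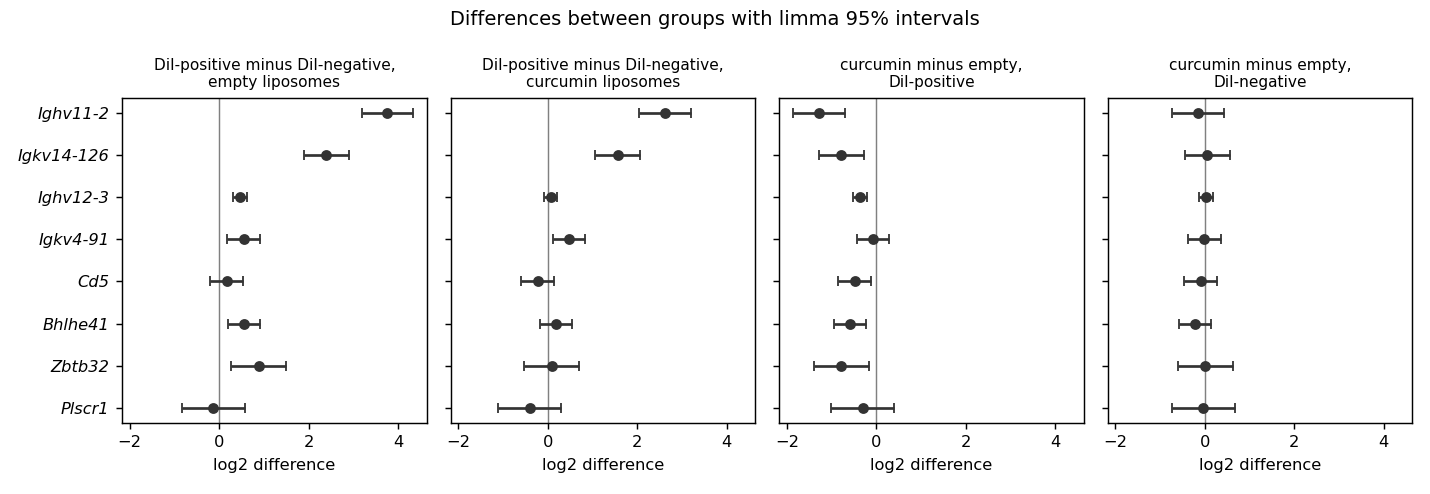
Differences between groups (horizontal axis, log2) for the 8 genes, with points for the limma estimate and bars for its 95% interval, in 4 comparisons. Ighv11-2 and Igkv14-126 lie right of 0 in both DiI+ minus DiI- panels, and the 8 points are all left of 0 for curcumin minus empty in DiI+ cells.

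Whether the B-1 genes follow the V segments was asked first against other B cell genes. All 12 B cell markers rose in the averaged difference, by 0.97 to 1.27 with a median of 1.17, for example Blnk by 0.99, Ebf1 by 1.09, Fcrla by 1.08 and Bank1 by 1.23. Of the 13 other genes known from B-1 cells, 4 rose and 2 fell, with a median of 0.22. Fcrl5 rose by 1.30, Siglecg by 1.01, Il5ra by 0.89 and Ctla4 by 0.41, while Itgam fell by 0.54 and Ahr by 0.95. Of the 8 follicular and marginal zone B cell genes tested, 6 rose, with a median of 1.05, among them Cxcr5 and Fcmr at 1.32 each, Fcer2a at 1.07 and Cd1d1 at 0.83. Among 6 antibody secretion genes tested Mzb1 rose by 1.21 and Jchain by 2.09, and Xbp1 fell by 0.38. Of 15 B cell receptor signalling genes 4 rose (Cd81 by 1.28, Cd72 by 0.83, Syk by 0.27 and Btk by 0.23) and none fell. Over all genes tested, 5.54% passed as higher and 6.56% as lower in this comparison.

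**Figure D4:**
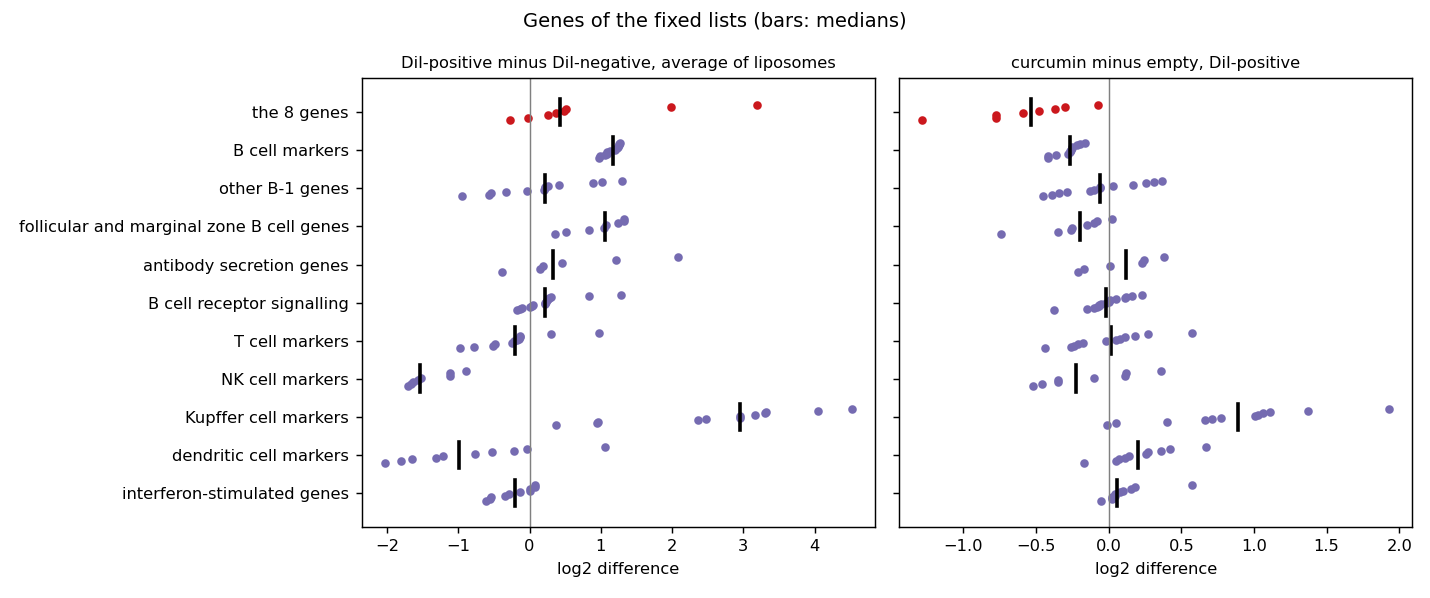
Differences of the genes of each list (horizontal axis, log2) for DiI+ minus DiI- averaged over liposomes (left) and curcumin minus empty in DiI+ cells (right), with bars at the medians. On the left the B cell markers sit between 0.97 and 1.27, with Ighv11-2 and Igkv14-126 to their right and the other 6 genes to their left.

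Taken relative to the mean of the 12 B cell markers in each library, Ighv11-2 differed by 2.54 after empty and 1.54 after curcumin liposomes. Igkv14-126 differed by 1.18 and 0.48. After curcumin liposomes its relative level was -4.71 ± 0.28 in DiI+ and -5.19 ± 0.33 in DiI- libraries (SD, n = 3), and these groups overlapped. The other 6 genes were all below 0 on this relative scale, from -1.35 (Plscr1) to -0.33 (Zbtb32) after empty and from -1.49 (Plscr1) to -0.60 (Igkv4-91) after curcumin liposomes. This fit was added after the data were seen. In it 3 of the 6 passed as lower after empty, 5 after curcumin liposomes and 6 in the average. Of the 14227 genes, 13426, 12773 and 13867 passed in these comparisons, since the marker rise is taken from every gene, so the members' counts say nothing particular about them. On a shrunken scale, the form these values have, a low gene moves less than a high gene with the same true change. The log2 values of all 8 genes lie below the marker mean. Relative values may therefore be too low for a difference above 0, those of Ighv11-2 and Igkv14-126 included. For a difference below 0, such as that of Plscr1, they may be too high. With the B cell marker mean as a covariate none of the 6 passed in the empty, curcumin or averaged comparison, and over all genes 65, 83 and 102 passed in place of 419, 437 and 1722. The difference of Ighv12-3 was then 0.42 after empty liposomes and 0.22 in the average, and that of Igkv4-91 0.036 and 0.031. The marker mean itself separates the gates, at 11.67 to 12.79 in DiI+ and 10.92 to 11.52 in DiI- libraries. The covariate therefore takes up part of the contrast between gates, and what the lost calls are due to was not tested.

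In DiI+ cells the difference curcumin minus empty was below 0 for all 8 genes. None of the 14227 genes tested passed (0%, smallest limma adjusted p = 0.301). Ighv11-2 was -1.28 ± 0.26 (SE) and Igkv14-126 -0.78 ± 0.23. Both were chosen by differences that use the same DiI+ libraries, so their values are a description with no test. Bhlhe41 was -0.59, Zbtb32 -0.78, Cd5 -0.48 and Ighv12-3 -0.37, with limma adjusted p from 0.421 to 0.537. Igkv4-91 at -0.08 and Plscr1 at -0.30 were closest to 0. Of the other 6 genes, Ighv12-3, Cd5 and Bhlhe41 were lower without overlap of the groups, beside 5.09% of all genes. An unadjusted p under 0.05 was reached by Ighv12-3, Cd5, Bhlhe41 and Zbtb32 among these 6, beside 8.19% of all genes.

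In this comparison the B cell markers had a median of -0.26, the other B-1 genes of -0.06, the follicular and marginal zone genes of -0.20 and the Kupffer cell markers of 0.89, beside a median of 0 over all genes. Without curcumin DiI+ replicate 3, the library with the low B cell marker mean, Ighv11-2 was -1.07. Among the other 55 Ighv segments the median was -0.03, and among the other 59 Igkv segments -0.04. Ighv11-2 and Igkv14-126 were the 2 lowest of the 118.

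In DiI- cells no gene passed between the liposomes (0% of all genes). Of the 6 genes other than Ighv11-2 and Igkv14-126, none reached an unadjusted p under 0.05, beside 3.3% of all genes. The differences of all 8 genes ran from -0.22 to 0.05, with a median of -0.02. The signed DiI+ minus DiI- difference was lower after curcumin than after empty liposomes for all 8 genes. It was -1.14 ± 0.37 for Ighv11-2 and -0.83 ± 0.33 for Igkv14-126 (curcumin less empty, SE), while for Plscr1 and Cd5 the difference between gates was larger in size after curcumin liposomes, with a sign below 0. Ighv11-2 and Igkv14-126 were chosen by the differences from which this measure is built, so their values are a description with no test. None of the other 6 genes passed (limma adjusted p = 0.999 for each), beside 0% of all genes. An unadjusted p under 0.05 was reached by Ighv12-3 alone among these 6, beside 3.7% of all genes.

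The second question was whether the genes followed Ighv11-2 from library to library within a gate. The choice of members used differences between gates and not this relation, but it used the same libraries. Over the 6 DiI+ libraries Igkv14-126 followed it with Pearson r = 0.987 (exact permutation p = 0.00278, the smallest that 6 libraries gave, adjusted p = 0.0389 over 14 relations) and Spearman rho = 0.943 (exact permutation p = 0.0167, adjusted p = 0.117). Without the 2 libraries farthest from the median of Ighv11-2, r was 0.937 (exact permutation p = 0.0833). After the mean of each liposome group was subtracted, r was 0.993 (exact permutation p = 0.0278 over the 36 orders within groups, the smallest possible, adjusted p = 0.389). With 36 orders a single relation among the 14 cannot pass. The permutation over all orders of the 6 libraries also exchanges values between the liposome groups, so the difference between liposomes enters it. Both genes were chosen by their values in these libraries, so the relation that passed is given as a description.

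Of the B-1 genes, Zbtb32 had r = 0.896 and rho = 0.886 with Ighv11-2 in DiI+ cells (exact permutation p = 0.0278 and 0.0333, adjusted p = 0.136 and 0.156). Bhlhe41 had r = 0.86 and rho = 0.943 (exact permutation p = 0.0292 and 0.0167, adjusted p = 0.136 and 0.117). These did not pass the correction. Because the liposome groups do not overlap for Ighv11-2, the difference between liposomes enters these values: with the group means subtracted, r was 0.755 for Zbtb32, 0.386 for Bhlhe41 and -0.208 for Ighv12-3. Cd5 had r = 0.35 (adjusted p = 0.711, exact permutation test) and the opposite sign with group means subtracted, r = -0.891 (exact permutation p = 0.0833 within groups, adjusted p = 0.389). Igkv4-91 had r = 0.56 and Plscr1 r = 0.306.

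In DiI- cells, where Ighv11-2 spans only 5.59 to 6.00, no relation passed, and 3 of 7 were above 0. Igkv14-126 had r = 0.22 there.

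**Figure D5:**
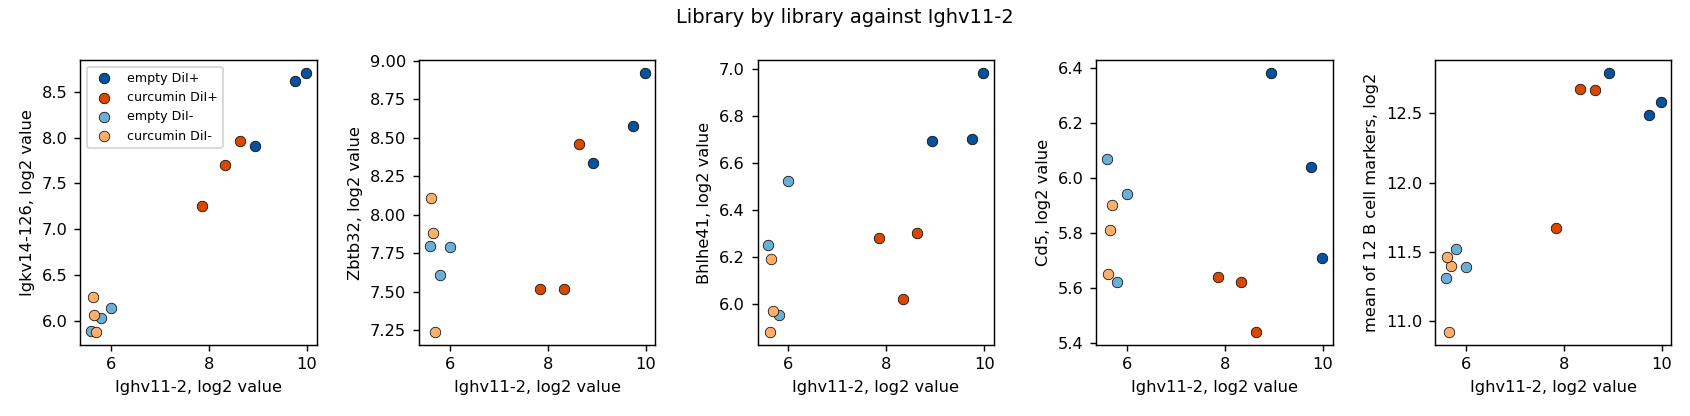
Log2 values of Igkv14-126, Zbtb32, Bhlhe41, Cd5 and the mean of 12 B cell markers (vertical axes) against Ighv11-2 (horizontal axis, log2), 1 point per library, coloured by group. Igkv14-126 rises with Ighv11-2 across the 6 DiI+ libraries (r = 0.987), whereas Cd5 has r = 0.35 over them. Within each DiI+ liposome group Cd5 falls as Ighv11-2 rises, which does not hold in the DiI- groups.

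Over all 12 libraries with group means subtracted, the mean of Ighv11-2 and Igkv14-126 was compared with 14225 genes. The genes most like it were Ctsk (r = 0.96), Pole3 (0.958), Cdk8 (0.942), Zcchc10, Nprl3, Chst10, Nmnat1, Lypla2, Prepl and Fkbp8 (0.928 to 0.905). None of the other 6 members was among these 10, and 12 genes reached r of at least 0.9. Zbtb32 ranked 482 with r = 0.643, Igkv4-91 987 with r = 0.54 and Bhlhe41 3416 with r = 0.261. Plscr1 had r = 0.024 (rank 6368), Ighv12-3 r = -0.164 (rank 8866) and Cd5 r = -0.744 (rank 13971). The B cell marker mean had r = 0.329. These correlations share the libraries and the depth and are given as a description.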

How the data were processed

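Messenger RNA of sorted cells was sequenced after low-input amplification in 12 libraries (24 sample records, 2 per library code, counted as 1 library each). The deposited values are log2 values per gene made by the authors; STAR 2.4.0d, DESeq2 1.8.1 and the GRCm38 build were used per the submitters' processing notes. Which counter, annotation and log transform were used is not given in the sources used here. Their form is that of a shrunken log, and the depth is unknown, so precision is given as the spread between libraries.

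From these values, genes whose mean reached 4 on the log2 scale were fitted with limma 3.58.1 in R 4.3.3 (group means, all 12 libraries, eBayes with trend, 8 residual degrees of freedom). Benjamini-Hochberg adjusted p under 0.05 over 14227 genes was the threshold for a rise or fall, and the fit was tested on simulated data. Correlations used two-sided exact permutation tests, within liposome groups where group means were subtracted. The named genes are the 8 members, up to 4 genes of each of 10 lists by smallest p in the averaged uptake difference, relatives of the V segments, the 3 highest and lowest V segments and the 10 genes most like the leading pair; for the 13 other B-1 genes all 6 that passed are named, with Il5ra and Ahr picked after seeing their values. The members and lists were chosen with earlier results of these data known.

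Alternatives were other filters and scalings, library weights, no trend, only the libraries compared, a replicate block, the B cell marker mean as a covariate and each library left out. Values less the B cell marker mean were fitted as a further alternative chosen after seeing the data. Replicate numbers were not used as pairs in the main fit, and whether they pair the libraries cannot be told from the values. The values of 1 gene of the lists are not reported here.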

Additional observations from a re-analysis of the deposited data

How the results depend on the processing

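Of the 6 members not used to choose the list, 1 passed after empty liposomes. With a minimum mean log2 value of 6, which drops Ighv12-3, the count was 0, and in the average 1 in place of 2. Of the 11515 genes then tested, 486 and 1714 passed. With only the 6 libraries compared (Zbtb32 added) the count was 2, beside 617 of all genes in place of 419. With library weights (Igkv4-91 added) it was 2, beside 789 of all genes. With the B cell marker mean, which itself separates the gates, as a covariate it was 0 after empty liposomes and 0 in the average. There 65 and 102 of all genes passed, and Ighv12-3 was 0.419 and 0.223. In values less the B cell marker mean, a fit chosen after seeing the data, it was 3, 5 and 6 after empty liposomes, after curcumin liposomes and in the average, all lower, and 13426, 12773 and 13867 of all 14227 genes passed. Leaving out 1 library at a time gave 0 to 1 members after curcumin liposomes. Igkv4-91 passed without curcumin DiI+ replicate 3, where 1088 of all genes passed in place of 437. The replicate block changed no member's call (1 after empty liposomes, 2 in the average, beside 405 and 1616 of all genes). With group means subtracted, same-numbered libraries correlated at -0.114 to 0.328, and 2 of 18 pairs were over 0.1. Whether the numbers pair the libraries cannot be told from these values.

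Signs turned in values less the B cell marker mean as follows. After empty liposomes Ighv12-3 was -0.75, Igkv4-91 -0.67, Cd5 -1.04, Bhlhe41 -0.66 and Zbtb32 -0.33. After curcumin liposomes Ighv12-3 was -1.02, Igkv4-91 -0.60, Bhlhe41 -0.90 and Zbtb32 -0.99. In the average Ighv12-3 was -0.89, Igkv4-91 -0.64, Bhlhe41 -0.78 and Zbtb32 -0.66. For curcumin minus empty, Igkv4-91 was 0.204 in DiI+ cells, and in DiI- cells Ighv11-2 was 0.001, Igkv4-91 0.138, Cd5 0.059 and Plscr1 0.114; the difference of uptakes of Igkv4-91 was 0.065. This construction subtracts the marker rise from every gene.

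With the covariate Plscr1 turned to 0.91, 0.53 and 0.72 in the empty, curcumin and averaged uptake, Zbtb32 to -0.13 after curcumin liposomes, Cd5 to 0.06 in the average and Igkv4-91 to 0.042 and 0.053 in the curcumin comparisons of DiI+ and DiI- cells. In DiI- cells Igkv4-91 was 0.017 with libraries shifted to 1 median and Zbtb32 -0.10 with library weights. Leaving out 1 library turned the sign of values that did not pass: Cd5 averaged -0.111 to 0.057, Plscr1 after empty liposomes -0.33 to 0.16, Zbtb32 after curcumin liposomes -0.22 to 0.28, and in curcumin DiI+ cells Plscr1 -0.599 to 0.071 and Igkv4-91 -0.166 to 0.078. In DiI- cells Igkv14-126 ran from -0.047 to 0.143, Igkv4-91 from -0.164 to 0.085, Cd5 from -0.215 to 0.007, Plscr1 from -0.175 to 0.07, Zbtb32 from -0.17 to 0.26 and Ighv12-3 from -0.015 to 0.053, and the difference of uptakes from -0.57 to 0.10 for Plscr1 and -0.161 to 0.088 for Igkv4-91.

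Of the 14 relations with Ighv11-2, 1 passed, that of Igkv14-126 in DiI+ cells, a pair chosen by its values in these libraries. None did with values less the B cell marker mean, without the 2 farthest libraries, or with group means subtracted. In the last, orders were exchanged within liposome groups and a single relation could not pass. The smallest p over 4 libraries, 0.0833, cannot pass either. With the marker mean subtracted, the DiI- values turned to 0.62 (Ighv12-3), 0.09 (Igkv4-91), 0.47 (Zbtb32) and 0.59 (Plscr1). The same mean is taken from both genes of a relation, a shared term that can by itself raise r. With group means subtracted, Ighv12-3 in DiI+ was -0.21, Cd5 -0.89 in DiI+ and -0.16 in DiI-. Without the 2 farthest, Plscr1 in DiI+ was -0.79, and in DiI- Igkv14-126 was -0.30, Cd5 -0.11 and Bhlhe41 -0.35. The causes of these changes were not tested. Depth is unknown, so counting error cannot be given.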
